A study of Homo sapiens with 14 samples.

Results

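The genes that let a cell detect DNA and RNA in its cytosol were followed through 4 days of exposure to a drug that blocks copying of mitochondrial DNA. The set held 10 of the 27142 genes in the count table. They were chosen by name and not by a rule on any measured value, though earlier results of these data were known. It covers the DNA sensors MB21D1 (cGAS) and IFI16, the DNA exonuclease TREX1, the adaptor TMEM173 (STING), the RNA sensors DDX58 (RIG-I), IFIH1 (MDA5) and TLR3, the adaptor MAVS, the kinase TBK1 and the transcription factor IRF3. Of these, 9 passed the filter on low counts and were tested, and TLR3 did not pass it.

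In background, cGAS binds double-stranded DNA and makes a cyclic dinucleotide that activates STING, while RIG-I and MDA5 bind viral-type RNA and signal through MAVS on the mitochondrial surface. Both adaptors recruit TBK1, which phosphorylates IRF3, and IRF3 then switches on type I interferon genes. DNA or RNA that escapes from damaged mitochondria is a known trigger of both branches, TREX1 clears cytosolic DNA, and interferon in turn raises transcription of several of the sensors themselves.

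Polyadenylated RNA was sequenced from IMR90 cells, an established wild-type line of human fetal lung fibroblasts, in 14 libraries. The drug was 2'3'-dideoxycytidine (ddC) at 20 uM, given for 24, 48, 72 or 96 h with 3 libraries at each time. The untreated group had 2 libraries. Their labels name a water vehicle and day 4, whereas the design text speaks of 0 h, so their time in culture is uncertain. The design text calls the libraries biological replicates without saying how the cultures were kept apart, and p-values measure the spread between these libraries. In RNA from whole cultures, less RNA per cell and fewer cells of a kind cannot be told apart.

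Library totals ran from 9398703 to 12147402 counts. Expression is given in CPM, counts per 1e6 of the TMM-scaled library total, and levels are compared between genes only as CPM per kilobase of the transcript length in the table. Fibroblast markers were present throughout, with COL1A1 at 15694 CPM or more, though S100A4 reached only 4.58 to 7.46 CPM. Immune cells also carry many of these sensors. Of 9 blood and immune markers, CD3E, IL3RA and CLEC4C had 0 counts in every library, PTPRC and CD14 had at most 3, LYZ and ITGAX at most 1, CSF1R 4 to 10, and CD68 stood at 43.0 to 60.8 CPM. The endothelial markers PECAM1 and CDH5 and the epithelial markers CDH1, SFTPC and SCGB1A1 also had 0 counts. KDR had at most 3 counts, VWF 4 to 13 and EPCAM 1 to 9. TEK (34.0 to 45.7 CPM), KRT18 (39.5 to 61.3 CPM), KRT8 (6.52 to 12.6 CPM) and KRT19 (2.43 to 5.83 CPM) were expressed.

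The libraries also differed in ways that bear on the comparisons. Over 210 pairs of an abundant gene and its low-count opposite-strand neighbour, reads on the neighbour came to 0.803 to 0.952 per 1000 reads of the abundant gene in the untreated and 24 h libraries and in replicates 1 and 2 at 48 h. In replicate 3 at 48 h and in all libraries at 72 and 96 h they came to 1.07 to 1.22. The line between these 2 sets was drawn on the values themselves, which also tended to be higher at later times. Whether they reflect how libraries were made or expression of the neighbours was not tested. Setting 72 or 96 h against untreated or 24 h libraries also sets these 2 sets of libraries against each other. Drug time and library set cannot be told apart in them.

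Promoters show which of the 10 genes carry letters resembling the element through which interferon acts. RefSeq promoter entries (GRCh38.p14), each running from 250 bases before to 50 bases after the start of the gene, were matched for 7 of the 10 genes. The motif GAAA, any 2 bases, then GAAA again was searched on both strands, with overlapping matches counted apart, and stood in 3.57% of 35116 promoters (1255). IFIH1 had 3 matches and TLR3 had 1, which spans the start itself, while the promoters of IFI16, TREX1, DDX58, MAVS and TBK1 held none in these windows. The 180 bases before the start are shown for IFIH1, the one sensor with matches wholly before its start, and for ISG15 and IFIT1, known interferon-stimulated genes whose values are given further on. Each reads 5' to 3' on the strand of its gene, and capitals mark the matches, which read TTTC, 2 bases, TTTC where they lie on the other strand.
IFIH1, chr2:162318685-162318864, minus strand: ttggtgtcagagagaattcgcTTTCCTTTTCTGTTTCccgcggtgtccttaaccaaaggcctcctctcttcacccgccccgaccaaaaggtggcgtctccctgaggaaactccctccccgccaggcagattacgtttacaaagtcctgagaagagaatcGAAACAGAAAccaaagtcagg
ISG15, chr1:1013317-1013496, plus strand: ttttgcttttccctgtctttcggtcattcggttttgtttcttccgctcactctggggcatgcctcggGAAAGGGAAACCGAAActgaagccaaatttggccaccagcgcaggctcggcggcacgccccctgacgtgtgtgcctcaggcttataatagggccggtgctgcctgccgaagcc
IFIT1, chr10:89392443-89392622, plus strand: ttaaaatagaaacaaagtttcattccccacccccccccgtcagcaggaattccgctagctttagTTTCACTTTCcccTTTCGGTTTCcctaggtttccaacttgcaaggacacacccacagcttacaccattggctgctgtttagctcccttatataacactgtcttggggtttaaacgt
In IFIH1 the matches span bases -159 to -150, -153 to -144 and -21 to -12 from the start, so the first 2 overlap. ISG15 and IFIT1 held 2 each. A match is a description of letters and not evidence of binding.

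None of the 9 tested sensing genes passed the test at any time of ddC exposure. By edgeR's quasi-likelihood test with Benjamini-Hochberg adjustment over the 13371 genes tested, 0 of 9 were called at 24 h against untreated cells, where 0% of all tested genes were called. At 48 h it was 0 of 9 beside 0.00748% of all genes, at 72 h 0 of 9 beside 0.179%, and at 96 h 0 of 9 beside 5.68%. The same count held for 96 h against 24 h (3.2% of all genes called), for the joint test of the 4 times against untreated cells (3.25%) and for a linear trend over the 4 treated days (3.29%). At an unadjusted p under 0.05 there were 0 of 9 at 24, 48 and 72 h, beside 3.42%, 6.01% and 7.24% of all tested genes. There was 1 of 9 at 96 h (TREX1) beside 19.8%, and 3 of 9 for 96 h against 24 h (TREX1, IFIH1 and MAVS) beside 15.2%. The joint test had 0 of 9 beside 13.2%, and the trend 1 of 9 (TREX1) beside 14.9%. DESeq2 and limma-voom also called 0 of 9 in each of these comparisons. The median size of the log2 difference at 96 h was 0.05 over the 9 genes and 0.13 over all tested genes. These medians were 0.03 and 0.07 at 24 h, 0.04 and 0.09 at 48 h, and 0.08 and 0.09 at 72 h. For 96 h against 24 h they were 0.08 and 0.11. The 9 genes were not matched to all tested genes for count, so the medians do not rank their stability. The comparisons with untreated cells share its 2 libraries, so their values are not independent of one another.

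**Figure D1:**
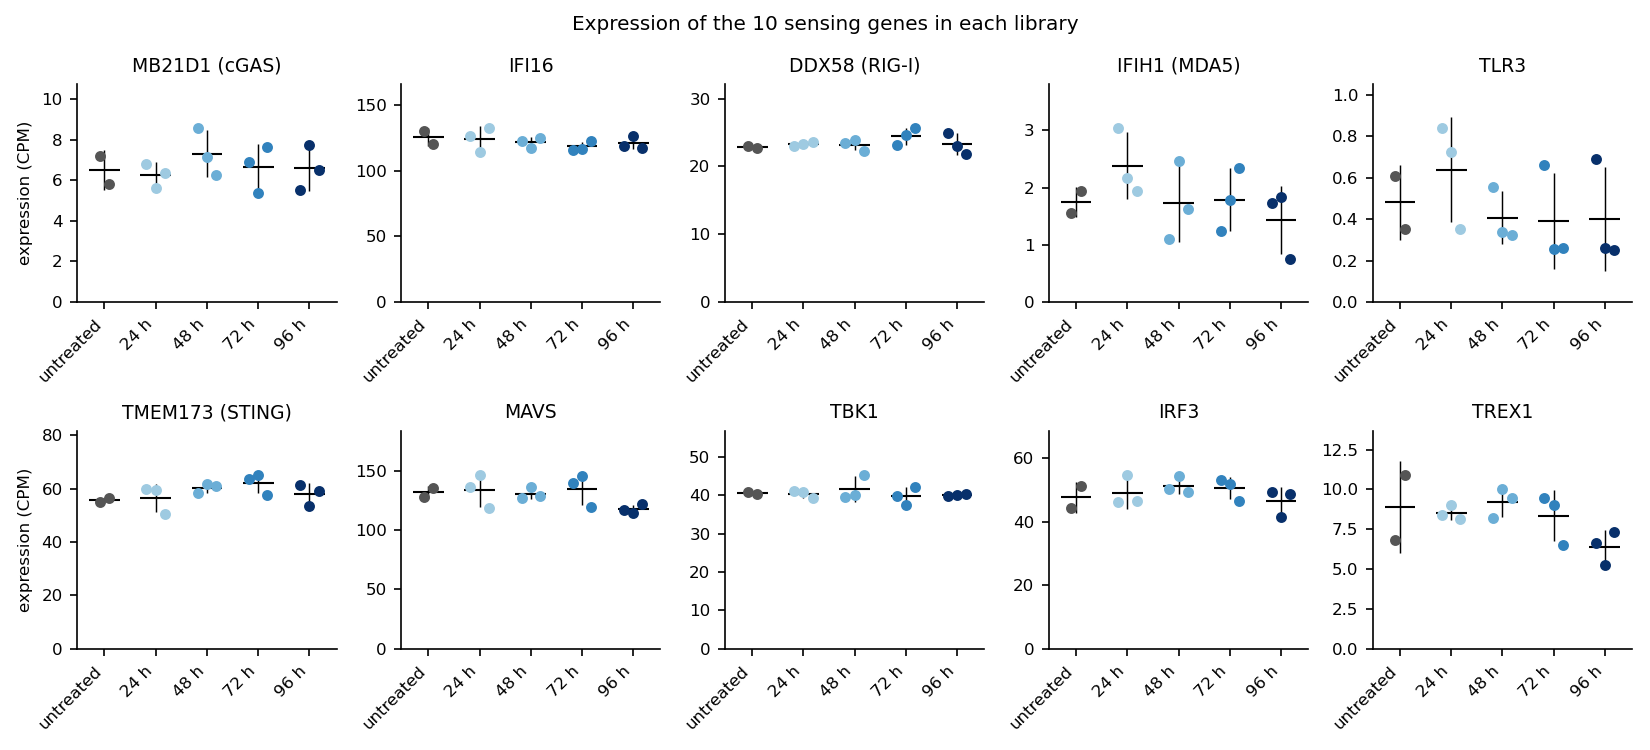
Expression in CPM (vertical axes, from 0) of the 10 sensing genes in each library, untreated and after 24, 48, 72 and 96 h of ddC (horizontal axes). Points are libraries, bars the group mean and lines 1 SD (n = 3 per ddC time and 2 untreated); IFI16 stays between 114 and 132 CPM, while TREX1 reaches its lowest value, 5.22 CPM, at 96 h.

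The sensing genes stood at very unequal levels, with the RNA sensors IFIH1 and TLR3 lowest. Per kilobase, the median over the 14 libraries was 44.6 CPM for IFI16, and its range lay above that of every other member. IRF3 (28.1) and TMEM173 (27.0) came next with overlapping ranges, followed by TBK1 (13.1) and MAVS (10.9), which also overlapped. DDX58 (4.90), TREX1 (3.91) and MB21D1 (3.70) formed a lower set, in which the ranges of neighbours overlapped. IFIH1 stood at 0.505 CPM per kilobase and TLR3 at 0.116. The ranges of IFIH1 and TLR3 overlapped, although IFIH1 was the higher of them in all 14 libraries. This order rests on 1 transcript length per gene, 11762 bases for MAVS and 1755 to 4736 bases for the others.

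MB21D1 encodes cGAS (NM_138441, chr6:74134856-74162043 on hg19, minus strand), the enzyme that starts the STING branch. It stood at 7.20 and 5.82 CPM in the untreated libraries, at 6.81, 5.60 and 6.36 at 24 h, at 8.57, 7.13 and 6.24 at 48 h, at 6.92, 5.37 and 7.63 at 72 h and at 5.53, 7.75 and 6.48 at 96 h. All 4 treated groups overlapped the untreated libraries. The log2 fold change at 96 h was 0.02 ± 0.19 (SE; edgeR adjusted p = 0.975), and its 95% interval allowed a level from 0.768 to 1.33 times that of untreated cells. The gene had 62 to 93 counts per library, for which counting alone gives a coefficient of variation of 11.5%, and its highest library was 1.59 times its lowest.

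IFI16, a nuclear and cytosolic DNA-binding protein that cooperates with cGAS (NM_005531, chr1:158979682-159024945, plus strand), was the most evenly measured of the DNA sensors. Its libraries read 130.1 and 120.4 CPM untreated, 127, 114 and 132 at 24 h, 122, 117 and 125 at 48 h, 116, 117 and 123 at 72 h and 119, 126 and 117 at 96 h. No time was set apart from the untreated libraries. At 96 h the log2 fold change was -0.05 ± 0.07 (edgeR adjusted p = 0.735), with a 95% interval of 0.874 to 1.06 in fold.

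TREX1, the exonuclease that degrades DNA in the cytosol (NM_016381, chr3:48506919-48509044, plus strand), had the lowest p of the members at 96 h. It read 6.85 and 10.9 CPM in the untreated libraries, 8.39, 9.03 and 8.13 at 24 h, 8.20, 10.0 and 9.48 at 48 h, 9.47, 9.04 and 6.50 at 72 h and 6.65, 5.22 and 7.32 at 96 h. All 96 h libraries lay below all 24 h libraries, but 1 of them lay above the lower untreated library. TREX1 averaged 6.40 ± 1.07 CPM at 96 h (SD, n = 3) and 8.89 ± 2.89 CPM untreated (n = 2). The log2 fold change at 96 h against untreated cells was -0.47 ± 0.20 (edgeR adjusted p = 0.180), with a 95% interval of 0.542 to 0.959 in fold. It rested on the untreated libraries. Without untreated replicate 2 it was -0.10 (adjusted p = 0.922), and without untreated replicate 1 it was -0.77 (adjusted p = 0.0697). Against 24 h, a comparison that uses neither untreated library for its means, it was -0.41 ± 0.18 (adjusted p = 0.271), and the trend was -0.13 ± 0.06 per day (adjusted p = 0.283). TREX1 overlaps ATRIP on the same strand by 136 bases, and ATRIP had 115 to 152 counts per library against 60 to 124 for TREX1, so the counting may have split reads between them.

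TMEM173 encodes STING (NM_198282, chr5:138855113-138862375, minus strand), the adaptor on which the DNA branch depends. Its values were 55.1 and 56.3 CPM untreated, 59.8, 59.4 and 50.5 at 24 h, 58.3, 61.6 and 61.1 at 48 h, 63.6, 65.3 and 57.7 at 72 h and 61.4, 53.4 and 59.2 at 96 h. Every library at 48 h and at 72 h lay above both untreated ones, and those at 24 and 96 h overlapped them. At 72 h, where the difference was largest, the log2 fold change was 0.16 ± 0.08 (edgeR adjusted p = 0.718) with a 95% interval of 0.990 to 1.26 in fold. At 96 h it was 0.06 ± 0.08 (adjusted p = 0.752), with an interval of 0.923 to 1.18.

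DDX58 encodes RIG-I (NM_014314, chr9:32455300-32526322, minus strand), a sensor of short double-stranded RNA with a 5' triphosphate. It stood at 23.1 and 22.7 CPM untreated, at 23.1, 23.3 and 23.7 at 24 h, at 23.5, 23.9 and 22.3 at 48 h, at 23.1, 24.6 and 25.7 at 72 h and at 25.0, 23.1 and 21.8 at 96 h. The 72 h libraries all lay above the untreated ones, by less than 0.1 CPM for the lowest of them, and those of the other times overlapped them. The spread over all libraries, a coefficient of variation of 4.43%, was below the 6.10% that counting alone gives. At 96 h the log2 fold change was 0.03 ± 0.09 (edgeR adjusted p = 0.912), with an interval of 0.894 to 1.16 in fold.

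IFIH1 encodes MDA5 (NM_022168, chr2:163123589-163175218, minus strand), the sensor of long double-stranded RNA, and its promoter holds the 3 matches shown above. At 9 to 29 counts per library it was near the limit of what could be tested. It read 1.56 and 1.94 CPM untreated, 3.04, 2.17 and 1.94 at 24 h, 1.11, 2.46 and 1.62 at 48 h, 1.24, 1.79 and 2.34 at 72 h and 1.73, 1.83 and 0.757 at 96 h. The 24 h libraries all lay above the untreated ones, the lowest of them by a margin under the rounding shown, and all of them lay above the 96 h libraries. The log2 fold change was 0.43 ± 0.37 at 24 h (edgeR adjusted p = 0.999; 0.789 to 2.30 in fold) and -0.29 ± 0.39 at 96 h (adjusted p = 0.746; 0.464 to 1.45). For 96 h against 24 h it was -0.72 ± 0.34 (adjusted p = 0.324), and -0.41 (adjusted p = 0.717) without 96 h replicate 3. The trend was -0.21 ± 0.10 per day (adjusted p = 0.350).

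TLR3, which senses double-stranded RNA in endosomes (NM_003265, chr4:186990309-187006252, plus strand), had 3 to 8 counts in each library. The 2 untreated libraries held 11 counts together, and the 3 libraries of each time held 20 at 24 h and 14 each at 48, 72 and 96 h. The exact Poisson 95% intervals of these sums were 5.49 to 19.7 untreated, 12.2 to 30.9 at 24 h and 7.65 to 23.5 at each later time. They cover counting error only and are not scaled for the number or depth of libraries. The untreated interval therefore cannot be set directly against the others, while those of the ddC times overlap. Its coefficient of variation of 44.7% was close to the 43.8% that counting gives, and no difference in TLR3 was detectable at this depth.

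MAVS, the adaptor of RIG-I and MDA5 on the outer mitochondrial membrane (NM_020746, chr20:3827446-3856770, plus strand), was the best counted of the RNA branch. It read 128 and 136 CPM untreated, 136, 147 and 118 at 24 h, 127, 136 and 129 at 48 h, 140.1, 146 and 119 at 72 h and 117, 114 and 122 at 96 h. All 96 h libraries lay below both untreated libraries, while at 24 h and 72 h replicate 3 lay below the other libraries of its group. MAVS averaged 118 ± 3.82 CPM at 96 h (SD, n = 3) and 132 ± 5.33 CPM untreated (n = 2). The log2 fold change was -0.16 ± 0.09 (edgeR adjusted p = 0.298), with an interval of 0.790 to 1.01 in fold. Against 24 h it was -0.19 ± 0.08 (adjusted p = 0.235). Without 24 h replicate 3 that difference was -0.27 and passed the test (adjusted p = 0.0468), and without 24 h replicate 2 it was -0.11 (adjusted p = 0.578). The trend was -0.05 ± 0.03 per day (adjusted p = 0.381).

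TBK1 and IRF3 carry the signal of both branches to the nucleus. TBK1 (NM_013254, chr12:64845840-64895899, plus strand) stood at 40.9 and 40.4 CPM untreated, at 41.1, 41.0 and 39.2 at 24 h, at 39.5, 40.1 and 45.4 at 48 h, at 39.9, 37.4 and 42.2 at 72 h and at 39.8, 40.1 and 40.3 at 96 h. The 96 h libraries lay below both untreated ones by less than 0.1 CPM at the closest, and its coefficient of variation, 4.41%, was below the 4.64% of counting. At 96 h its log2 fold change was -0.02 ± 0.08 (edgeR adjusted p = 0.918; 0.878 to 1.11 in fold).

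IRF3, the factor that TBK1 phosphorylates, is listed under a non-coding transcript record (NR_045568, chr19:50162826-50169132, minus strand). It read 44.2 and 51.1 CPM untreated, 46.1, 54.9 and 46.5 at 24 h, 50.5, 54.6 and 49.3 at 48 h, 53.3, 51.9 and 46.6 at 72 h and 49.3, 41.5 and 48.9 at 96 h, with overlap at every time. At 96 h the log2 fold change was -0.03 ± 0.10 (edgeR adjusted p = 0.892; 0.848 to 1.12 in fold). IRF3 overlaps BCL2L12 on the opposite strand by 734 bases. In another pair on opposite strands, VIM-AS1 had 0.155% of the counts of VIM. Whether reads of IRF3 and BCL2L12 were kept apart was not tested.

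**Figure D2:**
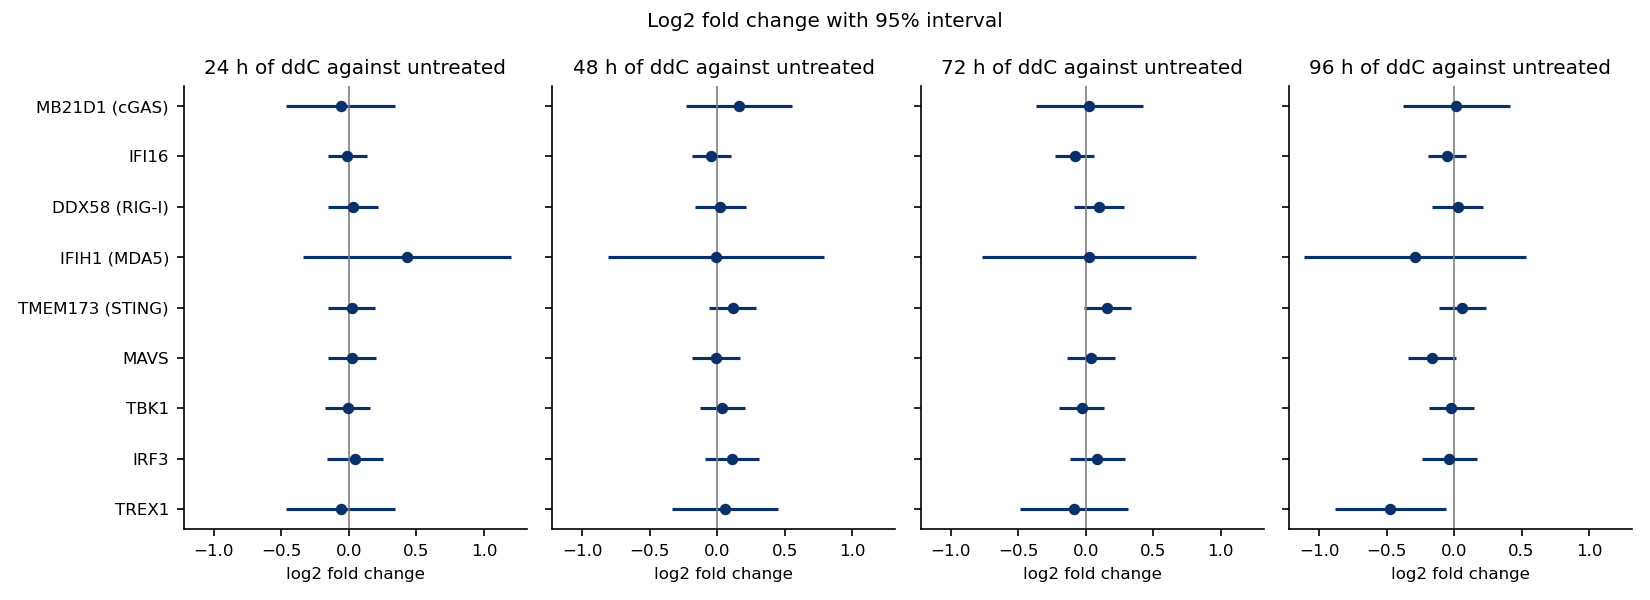
Fitted log2 fold change against untreated cells (horizontal axes) of the 9 tested genes (rows) after 24, 48, 72 and 96 h of ddC (panels), with lines for the 95% interval. Intervals are narrow for IFI16 and TBK1 and wide for IFIH1, and at 96 h that of TREX1 lies below 0 before adjustment.

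The bounds on any difference were tightest for the 6 well-counted genes IFI16, TMEM173, DDX58, MAVS, TBK1 and IRF3. Their 95% intervals ran from 0.886 to 1.19 in fold at 24 h, from 0.877 to 1.24 at 48 h, from 0.856 to 1.26 at 72 h and from 0.790 to 1.18 at 96 h. For IFIH1 the interval reached 2.30 at 24 h, so a rise of that size in MDA5 transcript could not be told from no difference. Counting libraries rather than fitting them, 1 of 9 genes had every library above both untreated ones at 24 h (IFIH1), where the libraries of 15.9% of all tested genes did not overlap. At 48 h it was 1 of 9 (TMEM173) beside 23.7%, and at 72 h 2 of 9 (TMEM173 and DDX58) beside 24.2%. At 96 h 2 of 9 had every library below both untreated ones (MAVS and TBK1) beside 40.3%, and for 96 h against 24 h it was 2 of 9 lower (TREX1 and IFIH1) beside 19%. These shares lie near or under the background of each comparison.

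The wider pathways were described through lists of 202 other genes, of which 168 were tested. At 24, 48 and 72 h, 0 of the 168 were called. At 96 h, 5 were called higher and 7 lower, or 7.14% of those tested against the background of 5.68%. Among these 12, TRIM22 had the largest rise and FEN1 the largest fall, and the calls were spread over 5 of the 6 lists. The counts at 96 h given below for each list have the same background of 5.68%, and their medians stand beside -0.0039 for all tested genes.

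Among genes that sense DNA or control its sensing, 0 of 36 were called higher and 1 lower at 96 h. The median log2 fold change was -0.06 beside -0.0039 for all tested genes. G3BP1, a stress granule protein that binds cGAS, had 154, 150.5 and 144 CPM at 96 h against 182 and 178 untreated, and fell by 0.27 ± 0.06 on the log2 scale (edgeR adjusted p = 0.00871). DNASE2, the lysosomal DNA endonuclease, had 43.5, 43.1 and 47.4 CPM at 96 h and 37.6 and 34.7 untreated, with a log2 fold change of 0.30 ± 0.10 that missed the threshold (adjusted p = 0.0705) but passed under 4 of 21 alternatives (lowest adjusted p = 0.0116). Other enzymes that hold the pathway in check did not pass either. They were SAMHD1, which degrades deoxynucleotides (-0.14, adjusted p = 0.418), RNASEH2A, which cuts RNA paired with DNA (-0.16, adjusted p = 0.262), and ENPP1, which hydrolyses the product of cGAS (-0.02, adjusted p = 0.923). AIM2, the sensor that builds inflammasomes, had 0 or 1 count in each library.

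Of genes that sense RNA or control its sensing, 0 of 40 were called higher and 2 lower at 96 h, with a median of -0.05. DHX9, a helicase of RNA and DNA structures, had 208, 215 and 194 CPM at 96 h against 272 and 261 untreated, and fell by 0.37 ± 0.06 (edgeR adjusted p = 8.75e-04). DDX3X, a helicase that takes part in translation and in signalling to TBK1, had 406, 426 and 387 CPM at 96 h against 475 at each untreated library, and fell by 0.22 ± 0.06 (adjusted p = 0.0173). Neither ADAR, which edits self RNA so that MDA5 does not bind it (-0.16 ± 0.07, adjusted p = 0.175), nor TRIM25, the ligase that activates RIG-I (-0.18, adjusted p = 0.221), passed, although ADAR passed with the nuclear RNA score described further on as a covariate (adjusted p = 0.0412). TICAM1, the adaptor of TLR3, stood at 0.11 (adjusted p = 0.721), TRAF3 at 0.02 (adjusted p = 0.936), and DHX58, the RIG-I relative LGP2, at -0.42 ± 0.54 (adjusted p = 0.721) on at most 1.27 CPM.

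In the relay through TBK1, IRF3 and NF-kB, 1 of 24 was called higher and 1 lower at 96 h, with a median of 0.07. TNFAIP3, the ubiquitin-editing brake on NF-kB known as A20, had 16.7, 17.0 and 16.2 CPM at 96 h against 10.1 and 13.7 untreated, and rose by 0.49 ± 0.14 (edgeR adjusted p = 0.0372). EP300, the acetyltransferase that acts as a coactivator of IRF3, had 83.7, 79.0 and 75.4 CPM at 96 h against 98.0 and 107 untreated, and fell by 0.37 ± 0.09 (adjusted p = 0.0180). The kinase IKBKE (0.20, adjusted p = 0.325) and the factor IRF7 (0.19, adjusted p = 0.652) did not pass.

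Of the 8 interferon genes listed, 7 had 0 or 1 count in every library. The other, IFNE, named here after its values were seen, had 2 to 11 counts and was not tested. IFNB1, a classic target of IRF3, had 0 counts in all 14 libraries, which allows at most 0.319 CPM in the shallowest library and 0.247 CPM in the deepest, taking 3 counts as the floor. Of 23 genes for interferons, their receptors and JAK-STAT signalling, 14 could be tested and 0 passed at any time. CCL5 also had 0 counts throughout, and CXCL10 had 0 to 2.

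Among interferon-stimulated outputs, 2 of 35 were called higher and 1 lower at 96 h, with a median of 0.09. TRIM22, an interferon-induced ligase that is also a p53 target, had 59.4, 56.5 and 52.8 CPM at 96 h against 36.5 and 38.4 untreated, and rose by 0.59 ± 0.10 (edgeR adjusted p = 6.70e-04). LGALS3BP, a secreted glycoprotein, had 166, 156 and 175 CPM at 96 h against 132 and 137 untreated, and rose by 0.30 ± 0.08 (adjusted p = 0.0206). DTX3L, the ubiquitin ligase partner of PARP9, had 30.0, 28.6 and 28.2 CPM at 96 h against 36.1 and 36.6 untreated, and fell by 0.33 ± 0.09 (adjusted p = 0.0318). ISG15 and IFIT1, whose promoters are shown above, did not pass. ISG15, the ubiquitin-like modifier, had 18.8, 15.9 and 17.6 CPM at 96 h against 12.5 and 13.7 untreated (0.41 ± 0.15, adjusted p = 0.113), whereas IFIT1, which binds viral RNA, had 8.64, 9.92 and 10.7 CPM against 12.9 and 10.3 (-0.25 ± 0.18, adjusted p = 0.456). ISG15 passed under 2 of 21 alternatives (lowest adjusted p = 0.0191). Its difference from untreated cells was largest at 48 h, at 0.49 ± 0.15 (edgeR adjusted p = 0.827). At 24 h it was 0.24 ± 0.15 (adjusted p = 0.999) and at 72 h 0.33 ± 0.15 (adjusted p = 0.672).

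Genes for release and turnover of mitochondrial nucleic acid were called in both directions at 96 h, with 2 of 22 higher, 2 lower and a median of -0.05. BAX, which opens the outer mitochondrial membrane and is also a p53 target, had 115, 119.9 and 126 CPM at 96 h against 95.9 and 97.2 untreated, and rose by 0.32 ± 0.07 (edgeR adjusted p = 0.00885). REXO2, an oligoribonuclease of mitochondria and cytosol, had 173, 191 and 178 CPM against 155 and 149, and rose by 0.25 ± 0.07 (adjusted p = 0.0486). TFAM, which packs mitochondrial DNA, had 39.1, 42.5 and 36.8 CPM at 96 h against 49.3 and 48.7 untreated, and fell by 0.31 ± 0.09 (adjusted p = 0.0449). FEN1, the flap endonuclease of DNA replication, had 63.7, 60.6 and 64.7 CPM against 90.2 and 80.7, and fell by 0.44 ± 0.07 (adjusted p = 6.54e-04).

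Of these 12 calls, those of TRIM22, FEN1 and DHX9 were kept under all 21 alternatives. The other 9 each ended without untreated replicate 1, and all of them but TNFAIP3 also without untreated replicate 2, either of which leaves a single untreated library. Those of DDX3X, EP300, TNFAIP3, DTX3L, LGALS3BP, TFAM and REXO2 also ended without at least 1 of the 96 h libraries. All 96 h libraries belong to the set with more opposite-strand reads, and the part of that set in these differences was not tested.

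**Figure D3:**
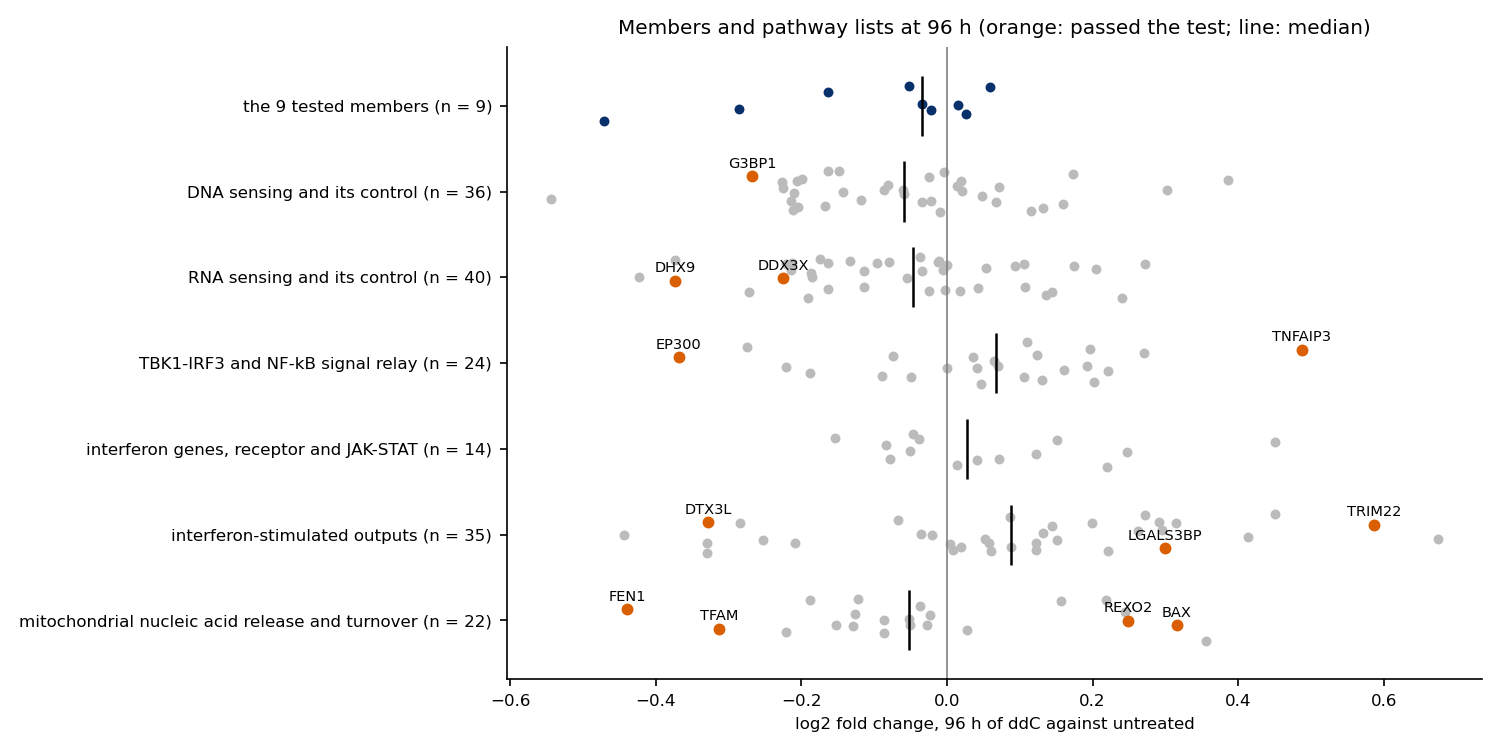
Fitted log2 fold change at 96 h of ddC against untreated cells (horizontal axis) of the 9 tested sensing genes and of the tested genes in the 6 pathway lists (rows; n beside each name). Points are genes, orange points passed the test and are named, and black lines are medians, which all lie between -0.06 and 0.09.

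Some of these genes did vary with a score of long noncoding RNAs kept in the nucleus, which differed widely within groups. MALAT1, a long noncoding RNA kept in the nucleus, ran from 52.1 to 409 CPM, and from 52.2 to 356 CPM within the 24 h group alone. A nuclear RNA score, taken as the average of log2 CPM over KCNQ1OT1, MALAT1, MEG3 and NEAT1, ran from 4.19 to 6.86 over the libraries. It describes these transcripts only, and the nuclear RNA content of a library was not measured. Tested as a term beside the 5 group means, an analysis chosen after the data were seen, the score was called for 26.5% of all tested genes (2016 higher and 1527 lower with it). Of the 9 sensing genes, 5 were called.

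Both adaptors, the nuclease and the transcription factor were higher where the nuclear RNA score was higher. Per unit of the score, MAVS rose by 0.09 ± 0.02 on the log2 scale (edgeR adjusted p = 1.89e-04), TREX1 by 0.18 ± 0.05 (adjusted p = 0.00921), TMEM173 by 0.08 ± 0.02 (adjusted p = 0.00833) and IRF3 by 0.09 ± 0.03 (adjusted p = 0.0106). IFI16 fell by 0.05 ± 0.02 (adjusted p = 0.0332). MB21D1, at -0.14 ± 0.06, missed the threshold (adjusted p = 0.0545) but passed under 4 of the 19 alternatives (lowest adjusted p = 0.0434), and DDX58, IFIH1 and TBK1 did not pass. The libraries of MAVS show the pattern within the 24 h and 72 h groups. At 24 h it had 118 CPM in the library of score 4.26 and 147 CPM in that of 6.75. At 72 h it had 119 CPM at a score of 4.61 and 140.1 CPM at 6.86. The 96 h group followed it less regularly, with 114, 122 and 117 CPM at scores of 4.73, 5.36 and 5.85. The call of MAVS was kept under all 19 alternatives. That of TREX1 ended without 72 h replicate 3 (adjusted p = 0.0732), that of TMEM173 without 24 h replicate 3 (0.0803), and that of IRF3 without 24 h replicate 2 (0.0502) or with the replicate number as a block (0.0747), while that of IFI16 ended under 11 of the 19. With the score as a covariate, 0 of 9 were still called at each time against untreated cells, and TREX1 at 96 h stood at -0.40 (adjusted p = 0.0873) and MAVS at -0.13 (adjusted p = 0.113). What sets the score apart between libraries was not tested.

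**Figure D4:**
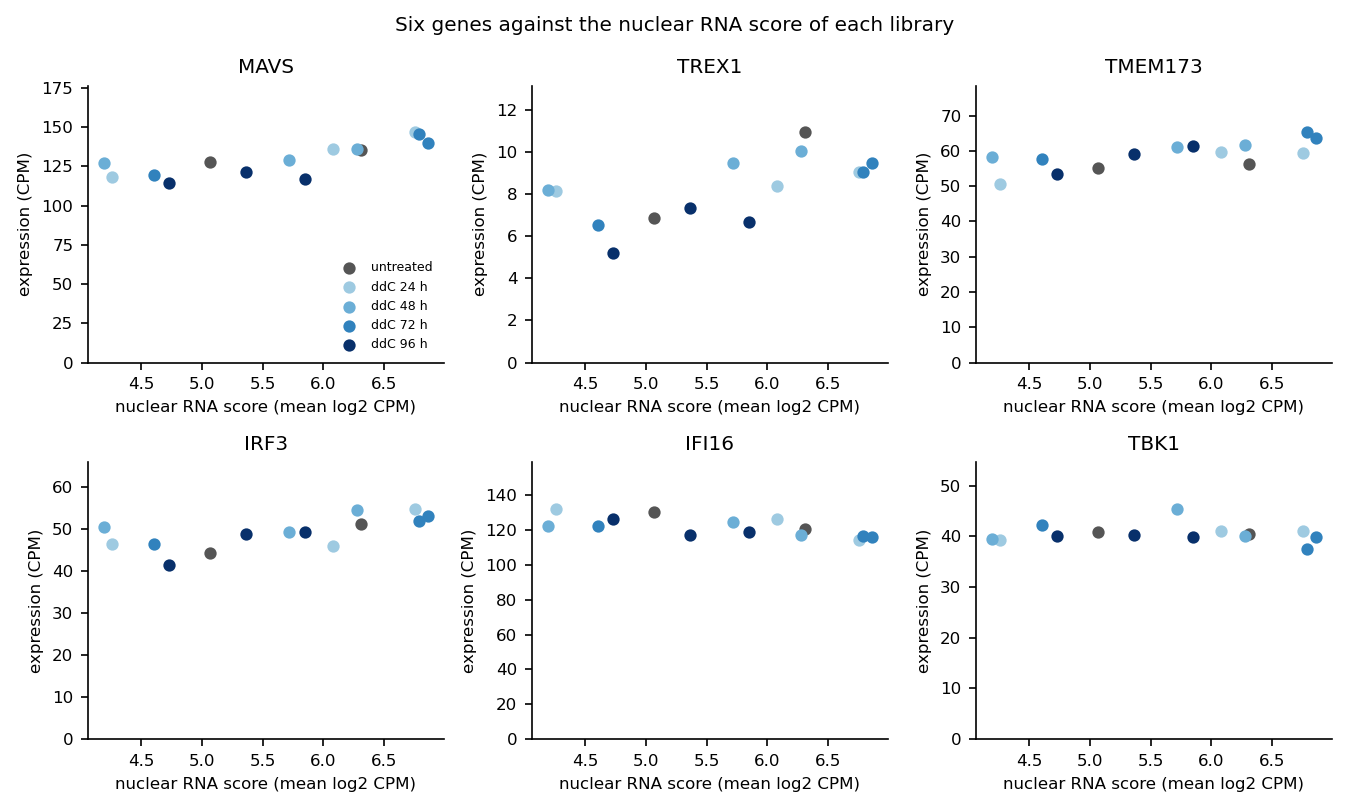
Expression in CPM (vertical axes, from 0) against the nuclear RNA score of each library (horizontal axes, mean log2 CPM of 4 nuclear RNAs) for MAVS, TREX1, TMEM173, IRF3, IFI16 and TBK1. Each point is a library, coloured by group. MAVS runs from 114 CPM (96 h, score 4.73) to 147 CPM (24 h, score 6.75). It is higher at higher scores within groups, less regularly at 96 h, and TBK1 stays level.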

How the data were processed

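Per the submitters' processing notes, the tools were STAR 2.5.3a and HOMER and the genome build was hg19. The library kit kept strand and selected mRNA, per the labels' protocols. The strand setting and read filters of the counting are not given in the sources used here. The deposited table holds raw counts, whole numbers for 27142 genes in 14 libraries, with 0 genes of the mitochondrial chromosome. Total counts ran from 9398703 to 12147402, and intervals on sums of counts cover counting error only.

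Tests used edgeR 4.0.16 in R 4.3.3 on the counts, with TMM factors, filterByExpr (minimum count 10, minimum total 15), a robust quasi-likelihood fit of 1 mean per group over all 14 libraries, and Benjamini-Hochberg adjustment over 13371 genes, called under 0.05, two-sided. The SE is the log2 fold change divided by the square root of F. Scripts were checked on simulated data. Alternatives were median-ratio size factors, DESeq2 1.42.0, limma-voom (limma 3.58.1), no filter, compared groups only, the replicate number as a block, each library left out in turn, and the nuclear RNA score as a covariate. The test of the score itself and the opposite-strand index were added after the data were seen. Over 26 same-numbered pairs of libraries, deviations from group means correlated at -0.36 to 0.61 (median -0.03), with 11 over 0.1. Over 52 pairs of unlike number they correlated at -0.49 to 0.51 (median 0.04), with 18 over 0.1. The deviations within a group are tied to one another, so these values are not independent. The numbers were not taken to pair samples.

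The sensing genes and pathway lists were chosen with earlier results of these data known. Named were all 10 sensing genes, list genes called at 96 h (up to 6 a list) and 18 fixed genes. Genes of like pattern were to be named for called members only, and none were. A marker of other cell types is not reported here.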

Additional observations from a re-analysis of the deposited data

Results flagged for a closer look

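The differences from untreated cells of 4 pathway genes were not the same at 96 h and 24 h of ddC. The direct edgeR test of 96 h against 24 h was used, with Benjamini-Hochberg adjustment over all tested genes. It called 1 gene higher and 3 lower of the 168 tested list genes, or 2.38% beside 3.2% of all tested genes. For DHX9, a helicase, the log2 difference of 96 h minus 24 h was -0.23 ± 0.06 (adjusted p = 0.0270), and for DTX3L, a ubiquitin ligase, it was -0.34 ± 0.08 (adjusted p = 0.0185). For FEN1, a flap endonuclease, it was -0.28 ± 0.07 (adjusted p = 0.0192), and for TRIM22, an interferon-induced ligase, 0.34 ± 0.08 (adjusted p = 0.0255). Each call ended without at least 1 of the 24 h or 96 h libraries, with a highest adjusted p of 0.177 for DHX9, 0.0994 for DTX3L, 0.0853 for FEN1 and 0.141 for TRIM22. The 2 times also fall in different sets of libraries by opposite-strand reads, and their part was not tested. No group had 4 libraries, so single outlying libraries were not tested for.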

How the results depend on the processing

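At each time against untreated cells, in the joint test and in the trend, 0 of 9 sensing genes were called under every alternative run. For 96 h against 24 h the count ran from 0 to 1 with each library left out, the 1 being MAVS without 24 h replicate 3. For the nuclear RNA score, 5 of 9 became 3 with the replicate block (TREX1, TMEM173 and MAVS) and 3 to 6 with each library left out. The block changed no call of a sensing gene in the time comparisons, and ended those of DTX3L and REXO2 at 96 h. DNASE2 and ISG15 at 96 h gained a call with compared groups only (adjusted p = 0.0116 and 0.0191) and, with ADAR, with the score as a covariate. DNASE2 also gained one without 48 h replicate 1 or 72 h replicate 3. The TFAM call also ended with DESeq2 and limma-voom, TNFAIP3 with DESeq2 and REXO2 with limma-voom.

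Some differences that were not called at 96 h turned sign. With the score as a covariate MB21D1 stood at -0.036. With each library left out, log2 fold changes ran from -0.13 to 0.17 for MB21D1, -0.11 to 0.0029 for IFI16, -0.028 to 0.070 for DDX58, -0.49 to 0.021 for IFIH1, -0.14 to 0.074 for IRF3, -0.083 to 0.039 for ENPP1 and -0.12 to 0.16 for TRAF3. The cause was not tested.

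Counts over all genes moved more. At 48 h, 1 call became 34 with the score as a covariate, 3 without a filter and 0 with limma-voom. At 72 h, 24 calls became 57 with DESeq2, 47 without a filter, 7 with compared groups only and 243 with the score as a covariate. It became 1 or 2 without an untreated library, and 4 or 6 without 72 h replicate 1 or 3. At 96 h, 759 became 1646 with compared groups only, 1848 with the score, and 174 to 1034 with each library left out (174 and 265 without an untreated library, 425 and 431 without 96 h replicate 1 or 3). With the score, 428 calls for 96 h against 24 h became 1087, 435 in the joint test 1363, and 440 in the trend 1018. With each library left out these ran from 223 to 545, from 223 to 583 and from 187 to 583, lowest in each without 96 h replicate 1. For the score itself 3543 became 1653 with the block, and 2115 or 2188 without 24 h or 72 h replicate 3. Compared groups only gives no other fit for the joint test. Depth limits IFIH1 and TLR3 most.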
